A study of Ovis aries with 57 samples.

Results

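The genes described here encode carriers that move amino acids and short peptides across cell membranes. They were taken from the expression tables by symbol, as rows beginning with SLC1A, SLC3A, SLC6A, SLC7A, SLC36A, SLC38A or SLC43A, together with PEPT1, the peptide carrier that other annotations name SLC15A1. The rule reads symbols alone and gave 51 of the 25174 features that carry an identifier. SLC15A2, a second peptide carrier sought by name, was not analysed here. The prefix also caught SLC7A6OS, which lies opposite SLC7A6 and is not a carrier. Counts of carriers below include it. Each of the 51 was above 0 in at least 1 library of every tissue.

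The libraries came from pregnant sheep that the labels describe by day of pregnancy alone, with no other treatment. Luminal epithelium (LE), the cell layer lining the uterine lumen, and glandular epithelium (GE), the lining of the uterine glands, were isolated by laser capture from frozen sections of uterus, with 4 libraries per tissue on each of days 10, 12, 14, 16 and 20. The conceptus, which is the embryo with its membranes, was flushed from the uterus, with 5 libraries on day 12 and 4 each on days 14, 16 and 20. Complementary DNA of LE, GE and the day 12 conceptus was amplified before sequencing and that of later conceptuses was not, so that for conceptus day 14 over day 12 the day and the amplification cannot be told apart. The protocol states that LE and GE were captured from 1 slide per animal, but the labels do not say which libraries share an animal. Each library was therefore treated as a separate animal, and p-values measure the spread between libraries. In captured tissue and whole conceptuses, fewer cells of a type and less RNA per cell cannot be told apart.

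Amino acid carriers fall into transport systems defined by substrate and driving ion. PEPT1 takes up short peptides together with protons, and SLC36A1 and SLC36A2 small amino acids such as glycine and proline. Many SLC6 and SLC38 carriers use the sodium gradient. The SLC7 light chains pair with the heavy chain SLC3A1 or SLC3A2, and most exchange 1 amino acid for another. The cationic carrier SLC7A2 is not a light chain and works alone. In ruminants the conceptus elongates while still free in the uterine lumen and lives on fluid secreted by or passing through LE and GE, a fluid rich in glycine, arginine, glutamine and leucine that stimulates trophectoderm growth through the kinase complex mTORC1.

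Mapped reads numbered 8.04 to 26.0 M in LE, 7.87 to 22.3 M in GE and 14.6 to 27.4 M in the conceptus. Of these, 1.93 to 7.59, 1.76 to 6.37 and 4.89 to 14.6 M fell in exons of the 18942 features whose exon length could be recovered. RPKM, the unit of levels below, is reads per kilobase of exon scaled to the mapped reads of the library. The day 14 LE and GE libraries carry sample numbers beginning with B. In LE they list 4528 to 5997 genes at 1 RPKM or more, against 6247 to 8741 on other days. In GE they list 6539 to 7916, against 7152 to 9161. These differences cannot be told apart from the day. EPCAM, an epithelial marker, averaged 63.5 to 216 RPKM by day in LE and 162 to 238 RPKM in GE. The gland factor FOXA2 was at or below 0.06 RPKM in every LE library and averaged 0.462 to 1.85 RPKM by day in GE, while PROK1 and SPINK1, 2 other gland markers, were near 0 in both. Trophectoderm markers summed to at most 1.37 RPKM in LE and 1.89 RPKM in GE, against 6.49 to 14.6 RPKM in the day 12 conceptus and 164.1 to 273 RPKM on day 16.

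Certain libraries stood apart. In LE day 20, libraries 21 and 23 held the gland transcripts GRP at 224 and 719 RPKM and SERPINA14 at 39.6 and 379 RPKM, against at most 2.89 and 0.94 RPKM in libraries 17 and 19. LE day 14 libraries B06 and B04 held GRP at 359 and 55.3 RPKM. The day 14 libraries correlated with the others of their own day at r = 0.652 to 0.729 in LE and 0.701 to 0.731 in GE. Libraries of the other days, LE day 20 library 19 aside, were at 0.848 or more. LE libraries B02 and B04 and GE library B01 were most like day 16 (r = 0.738, 0.769 and 0.747). LE day 20 library 19 correlated less with the other libraries of its own day (r = 0.793) than with LE day 12 (r = 0.93). It was kept under its label, and LE day 20 results that change direction or call without it, or without libraries 21 and 23, are given both ways.

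A carrier entered the LE and GE tests when it reached 1 RPKM in at least 4 libraries, which 22 of the 51 did in LE, 23 in GE and 29 in the joint comparison of both. In the conceptus 39 had enough reads. Counts over carriers that passed such a filter describe those carriers and not the whole set. Passing in all 3 tissues were 16 carriers, among them PEPT1, SLC36A2, SLC7A9, SLC38A1 and SLC38A2. The 10 tested in the conceptus and not in the epithelia were SLC6A11, SLC6A14, SLC6A16, SLC6A17, SLC6A19, SLC6A20, SLC7A6, SLC7A10, SLC7A11 and SLC38A5. Below the filters in every tissue were 12 carriers, whose highest level in any library was 2.74 RPKM. Without a filter on low values limma called SLC6A3, the dopamine carrier, at 0.05 to 0.14 RPKM in LE on day 14 and at most 0.03 RPKM on day 12, higher on day 14 (log2 0.13, adjusted p = 0.00933). Also among the 12 were SLC1A6 and SLC1A7 (glutamate), SLC6A12 and SLC6A13 (betaine and GABA), SLC6A2 (noradrenaline), SLC6A5 (glycine), SLC6A7 (proline), SLC7A14, SLC38A4 and SLC38A8.

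The leading carrier changed with tissue and day. In LE, SLC7A9, which imports cystine and cationic amino acids, held 39.3% of the summed carrier RPKM on day 10 and 48.4% on day 12. PEPT1 led on days 14 and 16 with 47.0% and 50.2%, and SLC36A2 was second on day 16 with 20.2%. On day 20 SLC7A9 (32.1%) and PEPT1 (26.6%) led, at 29.7% and 28.5% without library 19 and 40.8% and 23.9% without libraries 21 and 23. In GE, SLC38A1, a sodium-coupled glutamine and alanine carrier, held 54.8% on day 10 and 22.2% on day 12. SLC36A2 led GE on days 14 and 16 with 35.2% and 28.6%, and SLC38A2, the close relative of SLC38A1, led on day 20 with 25.9%. No carrier led the conceptus as strongly. SLC36A1 held 17.1% on day 12, the lysosomal carrier SLC38A9 12.9% on day 14, and PEPT1 13.6% on day 16 and 14.3% on day 20. The summed carrier level in LE lay between 353 and 611 RPKM on day 16 and between 102 and 156 RPKM on day 10, and these ranges did not overlap. All features together summed to between 193715 and 301559 RPKM on day 16 and between 118767 and 151577 RPKM on day 10, also without overlap, and the carriers made up 0.182% to 0.213% of that sum on day 16 and 0.0752% to 0.115% on day 10.

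**Figure D1:**
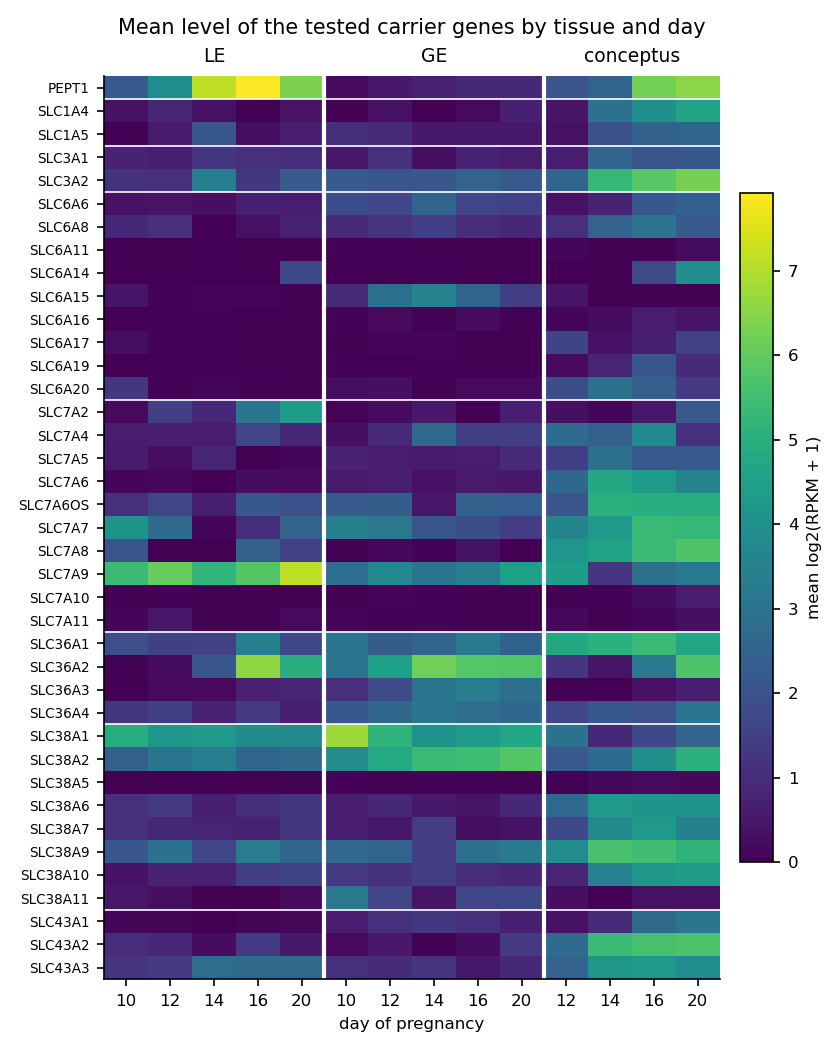
Mean of log2(RPKM + 1) of the 39 carriers tested in any tissue, by tissue and day, with carriers in rows, days in columns from low to high within LE, GE and conceptus, and colour for the level. PEPT1 was high in LE from day 14 and in the conceptus from day 16 and low in every GE column. SLC38A2 and SLC36A2 were high in GE and in the day 20 conceptus (5.05 and 5.74). SLC36A2 was also high in LE on day 16, at 6.62 against at most 6.24 in GE.

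Changes over days in LE and GE were tested with limma on log2(RPKM + 1) across all genes, and differences below are on that scale, which understates changes of low genes. A carrier passed when its Benjamini-Hochberg adjusted p over all genes was under 0.05. In LE 5 of 22 carriers changed over days, against 23.8% of all genes tested. They were PEPT1, SLC36A2, SLC7A2, SLC7A7 and SLC7A8. In GE 9 of 23 changed, against 23.5% of all genes, and these were SLC36A2, SLC36A3, SLC38A1, SLC38A2, SLC38A9, SLC38A11, SLC6A15, SLC7A4 and SLC7A6OS. With edgeR's quasi-likelihood test on exon reads recovered from the RPKM values, 12 of 30 carriers changed in LE, against 21.4% of all genes, the additional ones being SLC1A5, SLC3A2, SLC43A3, SLC6A15, SLC6A20, SLC6A8 and SLC7A5.

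Between neighbouring days, every carrier that passed did so on a step into or out of day 14. For LE day 14 over day 12, 1 carrier rose and 1 fell, against 3.39% and 9.76% of all genes, with a carrier median of -0.05 beside -0.34 over all genes. For LE day 16 over day 14, 3 rose and none fell, against 11% and 1.4% of all genes, with medians of 0.64 and 0.49. For GE day 14 over day 12, 3 rose and 2 fell, against 6.29% and 9.68%, with medians of 0.20 and -0.18. For GE day 16 over day 14, 2 rose and none fell, against 12.6% and 4.89%, with medians of 0.03 and 0.25. SLC7A6OS, which is not a carrier, was 1 of the 2 that fell and 1 of the 2 that rose at these GE steps. No carrier passed limma's test for day 12 over day 10, against 0.315% of all genes higher and 0.25% lower in LE and 0.179% and 0.348% in GE. None passed for day 20 over day 16, against 0.109% and 0.152% in LE and 0.119% and 0.189% in GE. Without LE day 20 library 19, SLC7A2 passed limma's test for day 20 over day 16 in LE (log2 2.46, adjusted p = 0.0153). At an unadjusted p under 0.05, 2 of 22 LE and 6 of 23 GE carriers differed between days 12 and 10. Among all genes 829 of 9203 in LE and 830 of 10049 in GE did. Between days 20 and 16 it was 3 LE and 1 GE carriers, against 825 and 691 of all genes. edgeR on recovered reads also called 0 carriers at these steps, against at most 0.337% of all genes. Upper quartile scaling called 1, in GE day 20 over day 16, against 0.219% of all genes. No filter on low values called 2 of 51, SLC6A15 and SLC6A20, in LE day 12 over day 10, against 0.211%. The 5 calls over all LE steps became 11 without day 14 library B04, 3 without day 14 library B06 or day 16 library 29 or 31, and 8 without day 20 library 19, and the 7 over all GE steps became 4 without day 12 library 16. The 5 carriers changed over days in LE became 9 without library B04.

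Endothelial marker sums were higher on day 14 than on days 12 and 16 in LE and GE, without overlap. Stromal marker sums overlapped between days 12 and 14 and were lower on day 16 than on day 14, without overlap. Leukocyte marker sums overlapped across these days in GE and in LE, where they were 9.29 to 41.1, 12.6 to 68.3 and 12.65 to 34.8 RPKM. In LE the 10 stromal markers summed to 258.5 to 484.6 RPKM on day 12, 293.5 to 648.8 RPKM on day 14, with THY1 at 0, and 44.8 to 106 RPKM on day 16. The 5 measured endothelial markers summed to 6.23 to 10.1 RPKM on day 12, 14.8 to 68.8 RPKM on day 14 and 7.85 to 12.2 RPKM on day 16. In GE the stromal sums were 142 to 211, 169 to 417 and 107 to 154 RPKM on these days and the endothelial sums 8.17 to 14.7, 29.9 to 112 and 12.4 to 25.4 RPKM. Their part in the carrier changes was not tested.

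The split of calls into higher and lower differed between fits. The all-gene median of LE day 16 over day 14 was 0.49 in RPKM, 0.20 after TMM scaling and -0.23 in edgeR on recovered reads, which also counts reads and filters otherwise. Carriers split into 3 higher and 0 lower in RPKM and 2 higher and 0 lower after TMM scaling, where 6.09% of all genes were higher and 2.91% lower. In edgeR they split into 1 higher and 3 lower, against 5.33% and 3.82%. For LE day 14 over day 12 the split was 1 higher and 1 lower in RPKM and with TMM, and 4 higher and 2 lower in edgeR (6.85% and 7.04% of all genes), with medians of -0.34, -0.17 and 0.20. For GE day 14 over day 12 it was 3 and 2 in RPKM, 2 and 3 after upper quartile scaling (4.99% and 17.9%) and 4 and 2 in edgeR (9.83% and 6.99%). For GE day 16 over day 14 it was 2 and 0 in RPKM, 2 and 1 after TMM scaling (9.36% and 7.45%) and 1 and 3 in edgeR (6.78% and 9.15%). Which of the choices that differ between these fits moved the split was not tested.

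PEPT1, the proton-coupled carrier for short peptides at the gut brush border, separated LE from GE and rose in LE as pregnancy advanced. In LE its level was 2.76, 4.03, 4.81 and 3.6 RPKM on day 10, 33.3, 5.93, 7.08 and 22.2 RPKM on day 12, and 81.5, 193, 182 and 140.4 RPKM on day 14. It stood at 316, 163, 226 and 292 RPKM on day 16 and at 105, 11.5, 137 and 245 RPKM on day 20, where the low value is library 19. Every day 14 library lay above every day 12 library, and every day 12 library above every day 10 library. The day means were 3.8 ± 0.855, 17.1 ± 13.1, 149 ± 50.5, 249 ± 69.3 and 125 ± 96.3 RPKM (SD, n = 4 each), and without library 19 day 20 averaged 162 ± 73.3 RPKM (n = 3). limma called the change over days (adjusted p = 3.33e-05) and the step of day 14 over day 12 (log2 3.30, SE 0.68, adjusted p = 0.00399). The step of day 12 over day 10 was 1.61 (adjusted p = 0.438) and did not pass, nor did day 16 over day 14 at 0.77 (adjusted p = 0.48) or day 20 over day 16 at -1.57 (adjusted p = 0.464).

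In GE, PEPT1 stayed near 0. Its highest GE value was 6.04 RPKM in day 14 library B01, and the other 19 GE libraries were at or below 1.89 RPKM, so the LE and GE libraries did not overlap on any day. The change over days in GE did not pass (limma adjusted p = 0.773). LE exceeded GE by a log2 difference of 2.00 on day 10, 3.33 on day 12, 6.43 on day 14, 7.05 on day 16 and 5.48 on day 20, each with SE 0.61 and an adjusted p between 1.44e-10 and 0.022. The day 10 call was lost without LE library 03 or 05 or GE library 06, and the day 20 difference was 6.39 without LE library 19 and 4.31 without LE libraries 21 and 23, both past the test. That difference itself changed with day in limma (adjusted p = 0.000203) and not in edgeR on recovered reads (adjusted p = 0.202).

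The conceptus gained PEPT1 between days 14 and 16. CPM, the unit of conceptus values below, are counts of gene reads scaled by TMM library size and are not corrected for gene length. PEPT1 was at 13.8, 30.5, 10.3, 12.1 and 15 CPM on day 12 and 21.9, 13.7, 18.1 and 13.8 CPM on day 14. It was at 134, 274, 277 and 131 CPM on day 16 and 155, 164, 287 and 367 CPM on day 20. The 8 later libraries all lay above the 9 earlier ones. edgeR gave a log2 change of 3.60 for day 16 over day 14 (SE 0.40 implied by the F statistic, adjusted p = 5.49e-06), 0.04 (adjusted p = 0.916) for day 14 over day 12 and 0.25 (adjusted p = 0.604) for day 20 over day 16. With exon reads in place of gene reads on day 12, edgeR gave -0.655 (adjusted p = 0.0938) for day 14 over day 12. On the RPKM scale the mean was 81.1 on day 16 and 97.2 on day 20, between the LE and GE means of the same days.

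SLC36A2, a high-affinity proton-coupled carrier of glycine and proline in kidney, appeared in GE before it appeared in LE. In GE its level was 6.72, 7.88, 11.3 and 5.02 RPKM on day 10, 27.1, 24.4, 17.4 and 16.9 RPKM on day 12 and 33.7, 192, 59.2 and 80.9 RPKM on day 14. It was then 61.3, 47.2, 64.5 and 54.9 RPKM on day 16 and 57.5, 62.9, 57.5 and 40.8 RPKM on day 20. Each of the first 3 days lay wholly above the one before. limma called the change over days (adjusted p = 1.72e-05) and day 14 over day 12 (log2 1.78, SE 0.38, adjusted p = 0.00361), while day 12 over day 10 was 1.38 (adjusted p = 0.135).

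LE held at most 0.57 RPKM of it before day 14. The values were 0, 0.09, 0 and 0.07 RPKM on day 10, 0.24, 0.57, 0 and 0 RPKM on day 12 and 0.1, 3.72, 8.66 and 6.65 RPKM on day 14. On day 16 they were 81.3, 73.7, 106 and 141 RPKM and on day 20 46.5, 0, 107 and 173 RPKM, where library 19 is the one at 0. All 4 day 16 libraries exceeded all 4 day 14 libraries. The change over days (adjusted p = 0.000254) and the step of day 16 over day 14 passed in limma (log2 4.47, SE 1.01, adjusted p = 0.00756). In edgeR on recovered reads that step was 3.70 with an adjusted p of 0.0619, and day 14 over day 12 passed instead at 4.91 (adjusted p = 0.0232). In limma that earlier step was 1.91 (adjusted p = 0.216). Without library 19 both steps passed in limma, day 14 over day 12 at 1.91 (adjusted p = 0.0305) and day 16 over day 14 at 4.47 (adjusted p = 0.000196), and day 20 averaged 109 ± 63.3 RPKM (n = 3).

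LE was lower than GE in SLC36A2 on days 10, 12 and 14, and with all libraries no difference passed on days 16 and 20. The log2 difference was -3.02 on day 10, -4.22 on day 12 and -4.10 on day 14 (SE 0.81, adjusted p at most 0.00814). It was 0.77 (adjusted p = 0.545) on day 16 and -0.84 (adjusted p = 0.583) on day 20. The day 20 value rested on single libraries, turning to 0.81 (adjusted p = 0.349) without LE library 19 and passing at -2.995 (adjusted p = 0.0228) without LE libraries 21 and 23. The difference changed with day (adjusted p = 0.00462). On day 16 the 4 LE libraries lay above the 4 GE libraries in RPKM. The 5 gland markers summed to 4.52 to 11.53 RPKM in these LE libraries and to 44.3 to 190.0 RPKM in the GE libraries of that day.

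In the conceptus SLC36A2 was at 15.2, 5.99, 3.52, 3.33 and 6.44 CPM on day 12, 0.831, 0.544, 0.518 and 1.41 CPM on day 14 and 18, 39.5, 2.75 and 13.4 CPM on day 16. By day 20 it reached 71.9, 64.4, 76.2 and 176 CPM. edgeR called each step, with a log2 change of -3.03 for day 14 over day 12 (adjusted p = 0.00153), 4.45 for day 16 over day 14 (adjusted p = 0.000223) and 2.40 for day 20 over day 16 (adjusted p = 0.0059). Day 16 library 4, at 2.75 CPM, was the lowest of its day and lay above all 4 day 14 libraries. Markers of stroma were also higher on day 20 than on day 16, without overlap, at 4370 RPKM or more against at most 1643 RPKM, and their part in the day 20 values was not tested.

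The other SLC36 carriers behaved differently. SLC36A3, whose substrates are not established, was at 0.6, 0.54, 2.22 and 1.6 RPKM in GE on day 10, 3.06, 1.48, 3.19 and 2.83 RPKM on day 12 and 12.1, 8.25, 4.01 and 6.66 RPKM on day 14. It rose for day 14 over day 12 (log2 1.21, SE 0.36, adjusted p = 0.0271), a call lost under upper quartile scaling (adjusted p = 0.0787) and without day 12 library 12 or 16 or day 14 library B01, and was at or below 5.23 RPKM in LE. Over all days LE held less SLC36A3 than GE (log2 -2.04, SE 0.18, adjusted p = 5.68e-12). SLC36A4, a proline and tryptophan carrier, averaged 1.57 RPKM in LE and 8.23 RPKM in GE on day 14 and was also lower in LE over all days (log2 -1.57, SE 0.24, adjusted p = 1.18e-06). SLC36A1, the lysosomal and intestinal member, did not change over days in GE by limma (adjusted p = 0.437), and its LE values overlapped those of GE on every day, for example 7.75, 8.94, 13.5 and 10.1 RPKM in LE and 13.7, 7.83, 8.37 and 6.41 RPKM in GE on day 16. In the conceptus SLC36A1 fell for day 20 over day 16 (log2 -0.66, adjusted p = 0.0182) and SLC36A4 rose (log2 1.22, adjusted p = 0.000115). SLC36A3 was at 0 in all 4 day 14 conceptuses and at or below 1.52 CPM in the others. SLC36A1, SLC36A2 and SLC36A3 are neighbours on chromosome 5 in the RefSeq annotation of ARS-UI_Ramb_v3.0, and how reads shared by such related genes were counted is not given in the sources used here.

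**Figure D2:**
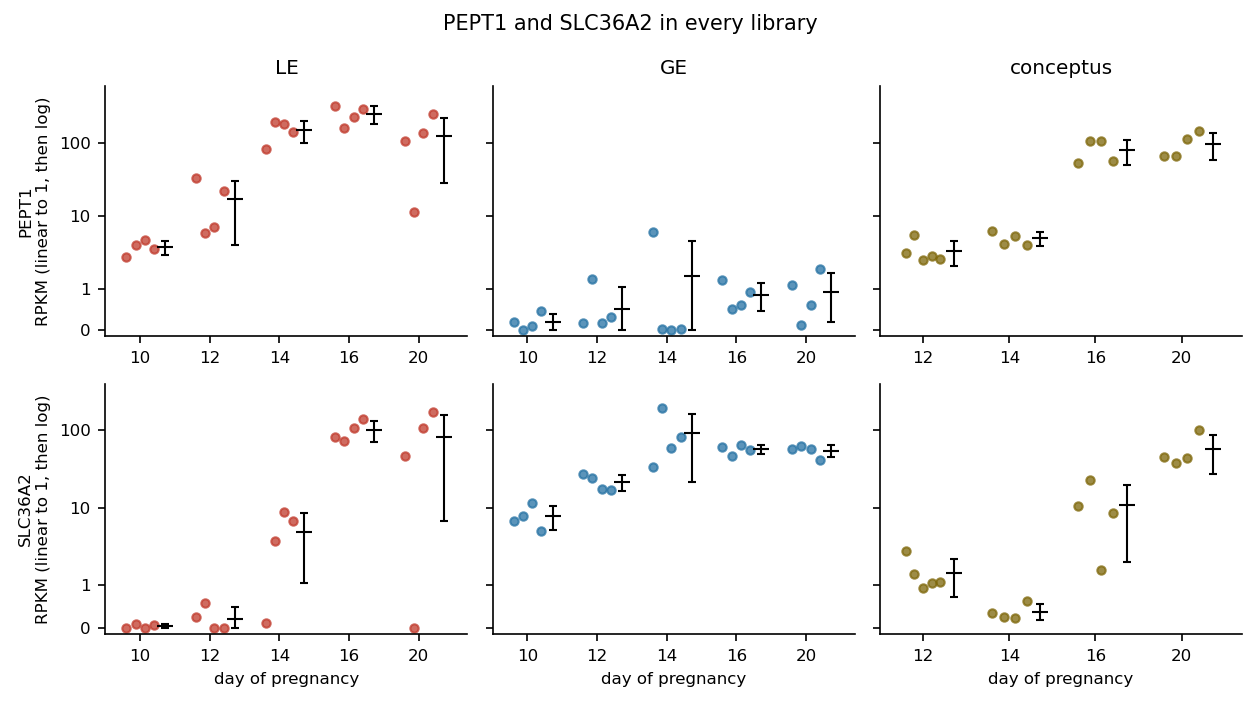
PEPT1 and SLC36A2 in every LE, GE and conceptus library by day of pregnancy, as RPKM on an axis that is linear to 1 and logarithmic above, with points for libraries and black marks for the mean and SD. PEPT1 separates LE from GE on every day, and SLC36A2 is at 5.02 RPKM or more in every GE library and reaches 73.7 RPKM or more in 6 of the 8 LE libraries of days 16 and 20.

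The cationic and cystine carriers of the SLC7 family were led in LE by SLC7A9, the light chain that pairs with SLC3A1 to import cystine, arginine and lysine in exchange for neutral amino acids. Its LE level was 53.5, 81.3, 71.5 and 8.92 RPKM on day 10, 66.6, 43.2, 47.7 and 145 RPKM on day 12 and 32.9, 22.1, 80.7 and 29.2 RPKM on day 14. It was 141, 36.1, 29.7 and 56.8 RPKM on day 16 and 104, 95.2, 217 and 186 RPKM on day 20. In GE it ran from 1.07 to 40.7 RPKM over all 20 libraries. LE exceeded GE on each day by a log2 difference of 2.21 to 2.65 (SE 0.77, adjusted p 0.0195 to 0.0337, each lost in 3 to 5 of 40 fits with 1 library left out), and over all days by 2.44 (SE 0.34, adjusted p = 2.09e-07). Without LE libraries 21 and 23 the day 20 difference was 2.15 with an adjusted p of 0.215. No change over days passed in LE (adjusted p = 0.121) or GE (adjusted p = 0.508). Its partner SLC3A1 was low in both tissues, with an LE mean of 0.86 RPKM and a GE mean of 0.443 RPKM on day 10.

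SLC7A2, the carrier that imports arginine, lysine and ornithine without exchange, appeared late in LE. It was at 0, 0.12, 0.47 and 0.02 RPKM on day 10, 2.84, 3.13, 0.88 and 1.07 RPKM on day 12 and 1.16, 1.15, 0.04 and 1.43 RPKM on day 14. Day 16 gave 5.28, 13.3, 7.63 and 6.49 RPKM and day 20 gave 24.8, 0.9, 78.6 and 52.3 RPKM, with library 19 again the low one. All day 16 libraries were above all day 14 libraries. The change over days passed (adjusted p = 0.00181), while day 16 over day 14 was 2.24 (adjusted p = 0.0541) and day 20 over day 16 1.29 (adjusted p = 0.68). Without library 19 these steps were 2.24 (adjusted p = 0.00513) and 2.46 (adjusted p = 0.0153), and the day 20 mean was 51.9 ± 26.9 RPKM (n = 3).

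GE libraries never exceeded 3.06 RPKM of SLC7A2. LE was above GE on day 16 (log2 3.09, SE 0.60, adjusted p = 0.000196) and day 20 (log2 3.75, SE 0.60, adjusted p = 2.98e-05), and the difference changed with day (adjusted p = 0.00445). Without LE libraries 21 and 23 the day 20 difference was 2.14 (adjusted p = 0.0263). In the conceptus the carrier was at 0.312, 0, 0.259 and 0.415 CPM on day 14, 1.3, 1.24, 0.0724 and 1.72 CPM on day 16 and 6.99, 7.83, 12.5 and 8.92 CPM on day 20. Day 20 lay wholly above day 16 (edgeR log2 3.05, SE 0.62, adjusted p = 0.00155).

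SLC7A7 and SLC7A8, light chains of SLC3A2, were higher in LE on day 10 than on day 14. SLC7A7, which exports cationic amino acids in exchange for neutral ones and sodium, was at 14.5, 13.6, 19.4 and 14.3 RPKM on day 10 and 2.71, 20.3, 9.67 and 1.22 RPKM on day 12. On day 14 it fell to 0.25, 0.06, 0.05 and 0.05 RPKM (log2 -2.58, SE 0.64, adjusted p = 0.0121), a call lost without day 12 library 11. By day 20 the values were 1.95, 17.7, 3.18 and 3.77 RPKM, of which library 19 was the highest. SLC7A8, an exchanger of neutral amino acids, was at 1.49, 2.34, 2.58 and 7.97 RPKM on day 10 and at or below 0.05 RPKM in all 8 LE libraries of days 12 and 14. It was at 1.52, 1.51, 7.54 and 15 RPKM on day 16 and rose over day 14 (log2 2.39, SE 0.71, adjusted p = 0.0313), a call that was lost with no filter on low values (adjusted p = 0.0846) and without day 14 library B06 or day 16 library 29 or 31. On day 20 it was at 0.04, 0.08, 2.47 and 18.6 RPKM, the higher values being those of libraries 21 and 23. GE held at most 1.58 RPKM of SLC7A8, and LE was above GE on day 10 (log2 1.97, SE 0.55, adjusted p = 0.0113, lost without LE library 07) and day 16 (log2 2.07, SE 0.55, adjusted p = 0.0052). On day 20 the difference was 1.55 (adjusted p = 0.0632), and it passed at 2.03 (adjusted p = 0.0133) without LE library 19. SLC7A7 in GE averaged 11.1, 8.34, 7, 3.03 and 1.72 RPKM over the 5 days, a change that did not pass (adjusted p = 0.0801).

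In GE, SLC7A4, a member with no established amino acid transport, was at 1.13, 18.4, 4.57 and 7.76 RPKM on day 14 and 1.46, 1.08, 0.73 and 0.61 RPKM on day 12 and rose for day 14 over day 12 (log2 1.78, SE 0.49, adjusted p = 0.0173), a call lost without day 12 library 16. SLC7A6OS, the non-carrier row, fell on day 14 in GE (log2 -1.82, SE 0.46, adjusted p = 0.0108) and rose on day 16 (log2 1.92, SE 0.46, adjusted p = 0.00708). Without day 14 it showed no change over days (adjusted p = 0.985). The heavy chain SLC3A2 had 1 extreme LE library, day 14 B08, at 133 RPKM, while the other 19 LE libraries were at or below 9.52 RPKM. SLC3A1 fell in GE for day 14 over day 12 by 0.77 (adjusted p = 0.0454), a call that 12 of 16 fits with 1 library left out did not keep.

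Among the sodium-coupled neutral carriers, SLC38A1 was highest in GE on day 10. Its GE level was 174, 87.2, 89.9 and 97.3 RPKM on day 10, 26.9, 31.5, 48.5 and 36.2 RPKM on day 12 and 4.53, 6.62, 49.3 and 35.3 RPKM on day 14. On day 16 it was 14.5, 23.9, 16.2 and 26.9 RPKM and on day 20 26.3, 18.9, 20.3 and 41.3 RPKM. Every day 10 library lay above every later one, and the change over days passed (adjusted p = 0.00441), although no single step did. Day 12 over day 10 was -1.59 (adjusted p = 0.271). LE held 6.77, 12.9, 16.2 and 14 RPKM on day 20 and 39.6, 28.4, 21.5 and 32.8 RPKM on day 10, and its change over days did not pass (adjusted p = 0.358). LE was lower than GE on day 10 (log2 -1.81, SE 0.55, adjusted p = 0.0209), a call lost under TMM scaling (adjusted p = 0.296) and without LE library 05 or GE library 02, and over all days (log2 -0.84, adjusted p = 0.00389), which was also lost under TMM scaling (adjusted p = 0.266).

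SLC38A2, which cells raise when amino acids are scarce, had its highest GE mean on day 20 and its lowest on day 10. It was at 19.1, 13.1, 13.7 and 11.3 RPKM on day 10, 21.1, 33.8, 19 and 43.1 RPKM on day 12 and 31.4, 33, 38.4 and 71 RPKM on day 14. Day 16 gave 43.5, 59.6, 32.8 and 39 RPKM and day 20 gave 36.9, 44.3, 85.6 and 65 RPKM. The change over days passed (adjusted p = 0.00255) and no step did. In LE the values stayed between 1.61 and 25.5 RPKM over all 20 libraries, and the change over days did not pass (adjusted p = 0.573). On every day LE was below GE, with a log2 difference of -1.52 on day 10 and -3.06 on day 20 (SE 0.47) and -2.25 over all days (adjusted p = 1.76e-11). The day 10 call was lost without LE library 07 or GE library 02, and the day 20 call held at -2.78 without LE library 19 and -3.64 without LE libraries 21 and 23. Under TMM scaling the day 10 and day 12 differences did not pass (adjusted p = 0.368 and 0.0884).

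SLC38A9, the lysosomal arginine sensor that acts on mTORC1, had its lowest mean on day 14 in both epithelia. In LE it was at 8.77, 6.15, 12.9 and 10.4 RPKM on day 16 and 5.13, 5.75, 0.6 and 0.6 RPKM on day 14, where the higher pair of libraries lay above all 4 of day 10 (2.63 to 3.91 RPKM). In GE it was at 5.89, 7.7, 7.57 and 6.63 RPKM on day 16 and 4.89, 0.04, 1.45 and 2.2 RPKM on day 14. Day 16 over day 14 passed in LE (log2 1.68, SE 0.51, adjusted p = 0.0338) and GE (log2 1.59, SE 0.40, adjusted p = 0.0101) in limma on RPKM and in neither in edgeR on recovered reads (adjusted p = 0.23 and 0.117). The LE call was lost without day 14 library B06 or B08 or day 16 library 25, 29 or 31. SLC38A11, a poorly characterised member, was at 0.06, 1.37, 0.23 and 0 RPKM in GE on day 14 and 4.69, 12.8, 7.25 and 8.96 RPKM on day 10. Its change over days in GE passed (adjusted p = 0.0105) and did not without day 14 (adjusted p = 0.0878). LE reached at most 2.69 RPKM and was lower than GE (log2 -1.51, SE 0.21, adjusted p = 1.76e-07).

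Of the SLC6 carriers only SLC6A6, SLC6A8 and SLC6A15 reached the filter in the epithelia. SLC6A15, a sodium-coupled carrier of branched-chain amino acids and proline best known from brain, was at 0.53, 2.19, 1.01 and 0.5 RPKM in GE on day 10, 6.58, 13.1, 3.42 and 5.4 RPKM on day 12 and 7, 10.6, 5.5 and 26.5 RPKM on day 14. Day 16 gave 6.95, 3.45, 4.07 and 5.76 RPKM and day 20 gave 3.63, 4.82, 0.53 and 0.45 RPKM. All libraries of days 12, 14 and 16 lay above all of day 10, and the change over days passed (adjusted p = 0.00476). No LE library exceeded 0.44 RPKM. Over all days LE was below GE (log2 -2.13, SE 0.18, adjusted p = 1.76e-12), the day 10 difference was -0.52 (adjusted p = 0.43), and the difference changed with day (adjusted p = 0.00265).

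SLC6A6, the taurine carrier, was at 0.03, 0.05, 0.07 and 1.04 RPKM in LE and 0.29, 6.36, 5.81 and 18.9 RPKM in GE on day 14, and LE was lower over all days (log2 -1.38, SE 0.21, adjusted p = 1.14e-06). SLC6A8, the creatine carrier, was at 0, 0, 0 and 0.03 RPKM in LE and 3.54, 10.6, 0.04 and 0.12 RPKM in GE on day 14, where LE was lower (log2 -1.48, SE 0.47, adjusted p = 0.0138). Its difference over all days (log2 -0.49, SE 0.21, adjusted p = 0.0466) was lost in 26 of 40 fits with 1 library left out and under TMM scaling (adjusted p = 0.279). SLC6A14, which takes up neutral and cationic amino acids with sodium and chloride, was too low in LE to be tested. It was listed at 0.45, 0, 11.4 and 6.14 RPKM on day 20, the higher values being those of libraries 21 and 23, and at or below 0.08 RPKM in the other 16 LE libraries.

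**Figure D3:**
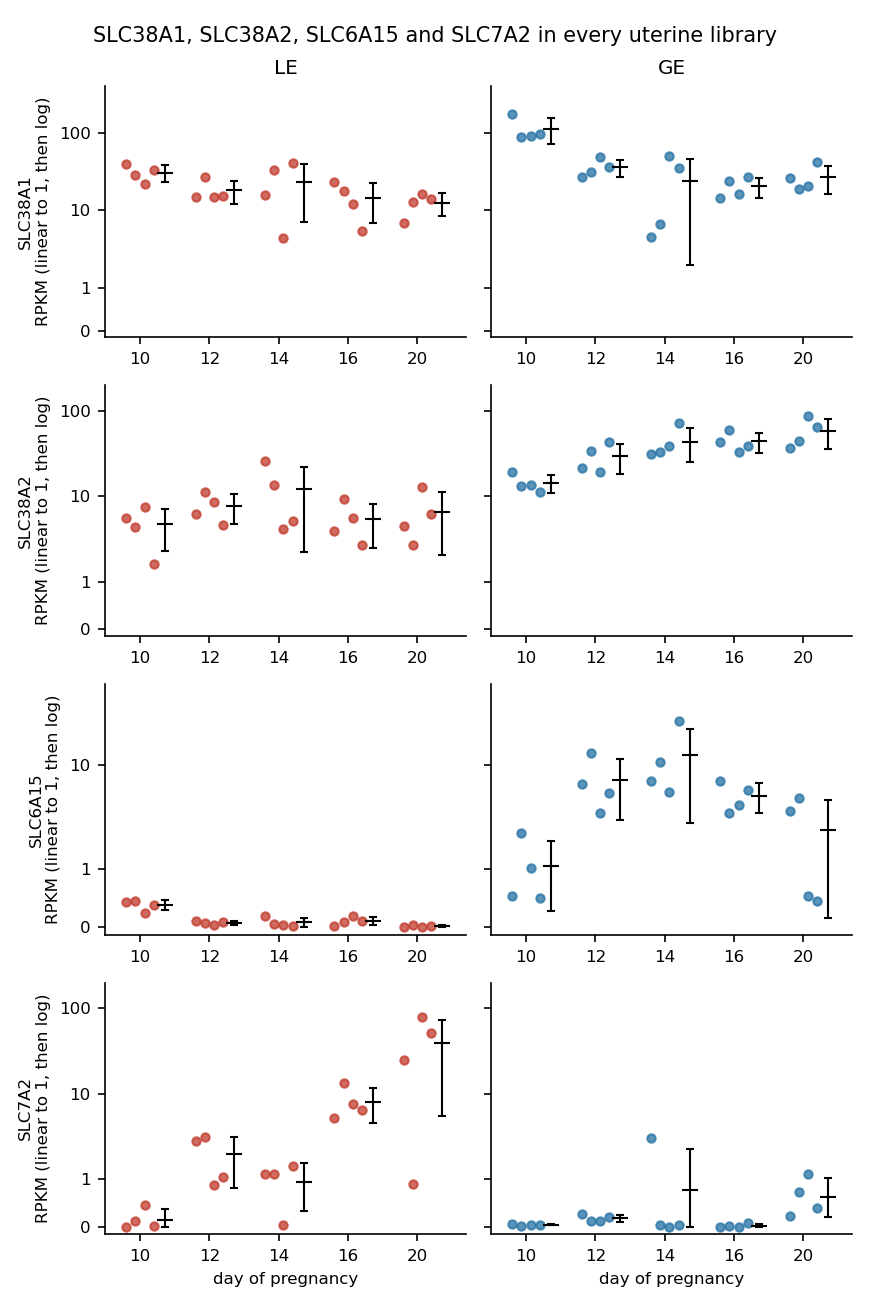
SLC38A1, SLC38A2, SLC6A15 and SLC7A2 in every LE and GE library by day of pregnancy, as RPKM on an axis that is linear to 1 and logarithmic above, with points for libraries and black marks for the mean and SD. SLC7A2 is in LE and near 0 in GE on days 16 and 20, SLC6A15 and SLC38A2 are higher in GE, and SLC38A1 in GE is highest on day 10.

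The exchangers SLC1A4 and SLC1A5, which swap small neutral amino acids and glutamine, were low in the epithelia, with SLC1A4 at or below 2.08 RPKM in every LE library and 1.34 RPKM in every GE library. SLC1A5 was at 0.72, 0.61, 8.92 and 13.5 RPKM in LE and 0.57, 0, 0.64 and 0.73 RPKM in GE on day 14 (log2 1.62, SE 0.45, adjusted p = 0.00436), and at or below 1.94 RPKM in the LE libraries of the other days. Its difference changed with day (adjusted p = 0.0316) and did not without day 14 (adjusted p = 0.233). SLC43A1, a facilitated carrier of branched-chain amino acids, was at most 0.58 RPKM in LE and 3.08 RPKM in GE, and LE was lower over all days (log2 -0.84, SE 0.13, adjusted p = 1.54e-06). SLC43A3, which belongs to that family but moves purine nucleobases, was at 6.39, 8.56, 4.53 and 4.02 RPKM in LE and 0.25, 0.19, 0.65 and 0.63 RPKM in GE on day 16, where the tissues did not overlap. LE was higher over all days (log2 1.24, SE 0.27, adjusted p = 0.000246), and day 14 library B06 stood at 63.3 RPKM.

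Over all days, 6 of 29 carriers were higher in LE and 10 lower, against 12.7% and 42.6% of all genes tested by limma. The carriers' median difference was -0.35 and that of all genes -0.37, and differences of single carriers are to be read against that shift. With TMM scaling, which moved the all-gene median to -0.08, 7 carriers were higher and 8 lower, against 20.8% and 25.8% of all genes, and without day 14 the counts were 7 and 14, against 13.9% and 45.3%. PEPT1 differed most, at 4.86 (SE 0.27, adjusted p = 2.68e-17), followed among the higher ones by SLC7A9, SLC7A2 (1.71), SLC43A3 and SLC7A8 (1.08, adjusted p = 0.000331). SLC38A6, the 6th, was at 0.42 (adjusted p = 0.0325) and was lost with a pseudocount of 0.1 (adjusted p = 0.0752). The lower ones were SLC36A2 (-2.28), SLC38A2, SLC6A15, SLC36A3, SLC36A4, SLC38A11, SLC6A6, SLC43A1, SLC38A1 and SLC6A8. A carrier could enter the comparisons of LE with GE, over all days and by day, through 1 tissue alone. Of the higher ones SLC7A2, SLC7A8 and SLC38A6 did not reach the filter in GE. Of the lower ones SLC6A6, SLC6A15, SLC36A3, SLC38A11 and SLC43A1 did not reach it in LE. The counts thus describe carriers picked in part by their level in the higher tissue.

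By day, 3 carriers were higher in LE and 5 lower on day 10, against 2.65% and 11.6% of all genes. On day 12 there were 2 and 5, against 3.03% and 9.17%. Day 14 gave 4 and 10, against 8.75% and 27.1%, and day 16 gave 5 and 6, against 6.76% and 15.7%. On day 20 there were 4 and 5, against 4.29% and 6.44%. PEPT1 and SLC7A9 were higher in LE and SLC38A2 lower on all 5 days. The difference changed with day for 5 of 29, against 13% of all genes, namely PEPT1, SLC36A2, SLC7A2, SLC6A15 and SLC1A5. Without LE libraries 21 and 23, SLC7A9 (adjusted p = 0.215), SLC6A15 (-1.45, adjusted p = 0.102), SLC36A4 and SLC38A11 (both adjusted p = 0.088) and SLC43A3 (adjusted p = 0.363) no longer passed on day 20. Without LE library 19 SLC38A11 did not pass (adjusted p = 0.0654), and the day 20 call of SLC43A3 was lost in 31 of 40 fits with 1 library left out.

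**Figure D4:**
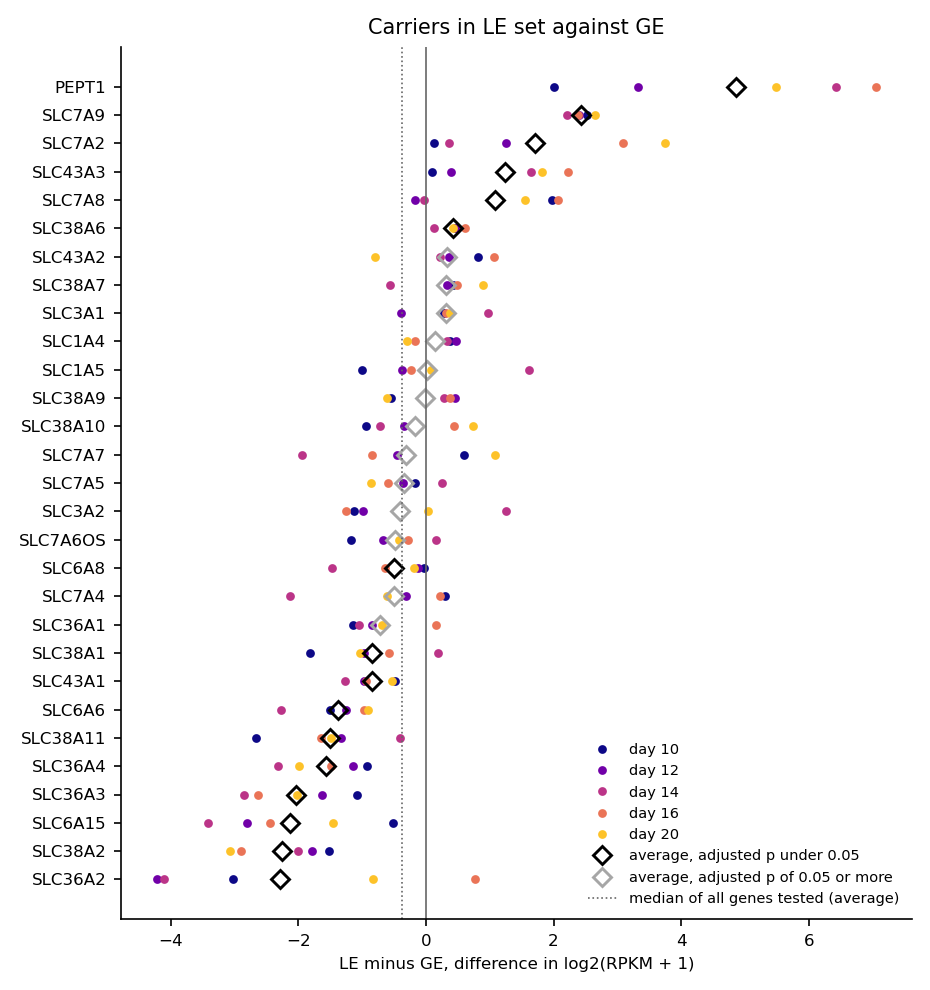
LE minus GE difference of each tested carrier on each day, in log2(RPKM + 1), with carriers in rows, a coloured point for each day, a diamond for the average over days (black for an adjusted p under 0.05) and a dotted line at the all-gene median of the average. PEPT1 stood at 7.05 on day 16, and SLC36A2 at -4.22 on day 12 and 0.77 on day 16.

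In the conceptus, edgeR called 31 of 39 carriers changed over days 14, 16 and 20, against 71.2% of all genes. For day 16 over day 14, 12 rose and 8 fell, against 25.6% and 24.3% of all genes, with a carrier median of 0.67 beside 0.06 over all genes. For day 20 over day 16, 5 rose and 7 fell, against 18.1% and 18.9%, with medians of 0.15 and -0.02. limma on RPKM, in which the all-gene median for day 16 over day 14 was 0.30, gave 15 of 31 higher and 1 lower, against 40.9% and 9.46% of all genes. For day 14 over day 12, 11 rose and 14 fell, against 38.1% and 38% of all genes, with medians of -0.14 and -0.01. In the day 12 libraries the deposited gene reads hold reads outside exons. They were 2.08 times the exon reads over all features with a recovered exon length, and a median of 2.69 times over carriers. With exon reads in their place, 13 of 36 carriers rose and 12 fell, against 41.2% and 33.1% of all genes. limma on RPKM gave 19 of 31 higher and 3 lower there, against 65.7% and 12% of all genes, with an all-gene median of 0.94. The stromal markers summed to 25.7 to 78.4 RPKM on day 14, 12.3 to 1643 RPKM on day 16 and 4370 to 14611 RPKM on day 20. The endothelial markers summed to 1.03 to 1.89, 0.588 to 31.6 and 38.9 to 134 RPKM on these days, and the red cell marker ALAS2 stood at 0.0666 to 0.302, 0.477 to 1.57 and 15.2 to 33.2 RPKM. Their part in the carrier and enzyme changes of days 16 and 20 was not tested.

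SLC6A14, SLC43A1 and SLC6A19 were among the carriers that rose on day 16. SLC6A14 was at 0, 0.181, 0.259 and 0.083 CPM on day 14, 1.54, 3.93, 11.3 and 10.9 CPM on day 16 and 20.8, 25.3, 58.5 and 31.1 CPM on day 20. These days did not overlap, and both steps passed in edgeR, day 16 over day 14 at 5.58 (adjusted p = 0.000122) and day 20 over day 16 at 2.30 (adjusted p = 0.00708). SLC43A1 was at 25.8, 20.9, 26.5 and 21.1 CPM on day 16 and 6.86, 6.62, 3.28 and 5.48 CPM on day 14 (log2 2.09, SE 0.24, adjusted p = 8.62e-06). SLC6A19, the neutral amino acid carrier of gut and kidney, was at 2.18, 2.17, 3.54 and 1.49 CPM on day 14, 13.5, 9.1, 1.3 and 12.2 CPM on day 16 and 3.01, 1.52, 1.44 and 2.84 CPM on day 20. It passed upward at day 16 (log2 1.94, adjusted p = 0.0206) and downward at day 20 (log2 -2.02, adjusted p = 0.0217), with library 4 of day 16, at 1.3 CPM, below the range of day 14.

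The glutamine and alanine carrier SLC38A2 rose at both later steps. It was at 23.3, 13.1, 11.6 and 16.2 CPM on day 14, 31.2, 19.1, 26.4 and 36.8 CPM on day 16 and 91.4, 71.2, 46 and 52.4 CPM on day 20. Day 20 lay wholly above day 16 (log2 1.20, adjusted p = 0.00209), and day 16 over day 14 was 0.83 (adjusted p = 0.0148). SLC7A7 was at 82, 65.7, 88.4 and 71.9 CPM on day 16 and 49.1, 59, 43 and 40.3 CPM on day 14 (log2 0.69, SE 0.13, adjusted p = 0.000442). SLC6A6 rose at the same step (log2 1.81, adjusted p = 0.0155), as did SLC7A9 (log2 1.88, adjusted p = 0.00442). With 1 of the 17 libraries left out in turn, the day 16 over day 14 call was lost in 3 fits for SLC6A19, 2 for SLC38A2 and 1 for SLC6A6, and the day 20 over day 16 call of SLC6A19 in 3.

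Other carriers fell at day 16, at day 20 or at both. SLC6A20, the sodium-coupled proline carrier, was at 13.5, 22.5, 17.3 and 26.7 CPM on day 14, 13, 7.1, 14.9 and 5.36 CPM on day 16 and 2.31, 4.48, 4.61 and 2.01 CPM on day 20, and fell at both steps (log2 -0.99, adjusted p = 0.0299, and log2 -1.60, adjusted p = 0.004). SLC7A6, a light chain of SLC3A2 for cationic amino acids, was at 65.7, 67.8, 74.5 and 67.6 CPM on day 14, 34, 35.1, 37 and 41.5 CPM on day 16 and 16.5, 22.9, 21.6 and 22.2 CPM on day 20, with no overlap between these days. SLC7A5, the light chain that carries leucine, was at 6.67, 9.79, 3.26 and 13.6 CPM on day 16 and 11.2, 22.3, 25.4 and 16.7 CPM on day 14 (log2 -1.18, SE 0.37, adjusted p = 0.0149). SLC3A1 fell at that step too (log2 -1.09, SE 0.19, adjusted p = 0.00021). Leaving out 1 library in turn lost the day 16 over day 14 call of SLC6A20 in 4 of 17 fits and that of SLC7A5 in 1, and the day 20 over day 16 call of SLC7A6 in 2. SLC7A4 was at 1.03, 4.16, 2.88 and 2.35 CPM on day 20 and 28.3, 38.3, 63.6 and 6.15 CPM on day 16 (log2 -3.72, SE 0.59, adjusted p = 0.000241). Before that fall it had risen for day 16 over day 14, from 17.9, 14.3, 5.61 and 14.9 CPM (edgeR log2 1.37, adjusted p = 0.0377). The call of that rise was lost in 5 of 17 fits with 1 library left out.

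The day 14 over day 12 step is given with gene reads first and exon reads second. SLC38A10 was at 52.8, 49.1, 56.4 and 50.6 CPM on day 14 and 9.87, 14.1, 9.51, 9.6 and 11.3 CPM on day 12, a rise of 2.26 (adjusted p = 2.82e-10), or 2.56 (adjusted p = 3.78e-11) with exon reads. SLC1A4 rose by 1.85 (adjusted p = 3.07e-05), or 3.05 (adjusted p = 5.51e-07). The heavy chain SLC3A2 rose by 1.44 (adjusted p = 4.65e-06), or 1.69 (adjusted p = 2.02e-06). SLC43A2, a branched-chain amino acid carrier, rose by 1.46 (adjusted p = 3.63e-06), or 1.60 (adjusted p = 2.43e-06). SLC7A5 rose by 1.60 (adjusted p = 0.00056) with gene reads, while exon reads gave 0.73 (adjusted p = 0.0767). Some carriers passed with exon reads alone. SLC3A1 was at 0.035 (adjusted p = 0.862), or 1.94 (adjusted p = 2.75e-07). SLC1A5 was at 0.98 (adjusted p = 0.0753), or 2.17 (adjusted p = 0.00196). SLC7A8 was at -0.17 (adjusted p = 0.579), or -0.82 (adjusted p = 0.0103). SLC7A7, SLC43A3 and SLC38A6 also passed with exon reads alone.

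SLC7A9 was at 3.95, 3.62, 1.64 and 4.32 CPM on day 14 and 87.8, 245, 59, 125 and 204 CPM on day 12, a log2 change of -5.41 (adjusted p = 6.29e-08), or -5.30 (adjusted p = 4.51e-08) with exon reads. SLC38A1 stood at 1.66, 6.16, 1.9 and 0.913 CPM on day 14 and 28.2, 69.6, 18.9, 41.4 and 50.9 CPM on day 12, a change of -3.97 (adjusted p = 2.78e-05), or -4.02 (adjusted p = 1.81e-05). SLC6A15 changed by -5.18 (adjusted p = 3.12e-06), or -5.97 (adjusted p = 5.2e-07), and SLC6A17, a vesicular neutral amino acid carrier of neurons, by -3.15 (adjusted p = 0.00162), and both also passed with exon reads. SLC6A16 passed with gene reads (adjusted p = 0.00214) and was -0.05 (adjusted p = 0.949) with exon reads. SLC36A1 fell by 1.00 with gene reads (adjusted p = 0.00019) and was 0.23 higher in limma on RPKM (adjusted p = 0.275), and SLC36A4 fell by 0.75 (adjusted p = 0.000565) and was 0.49 higher there (adjusted p = 0.00783). With exon reads these were -0.97 (adjusted p = 0.000145) and -0.55 (adjusted p = 0.0155).

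**Figure D5:**
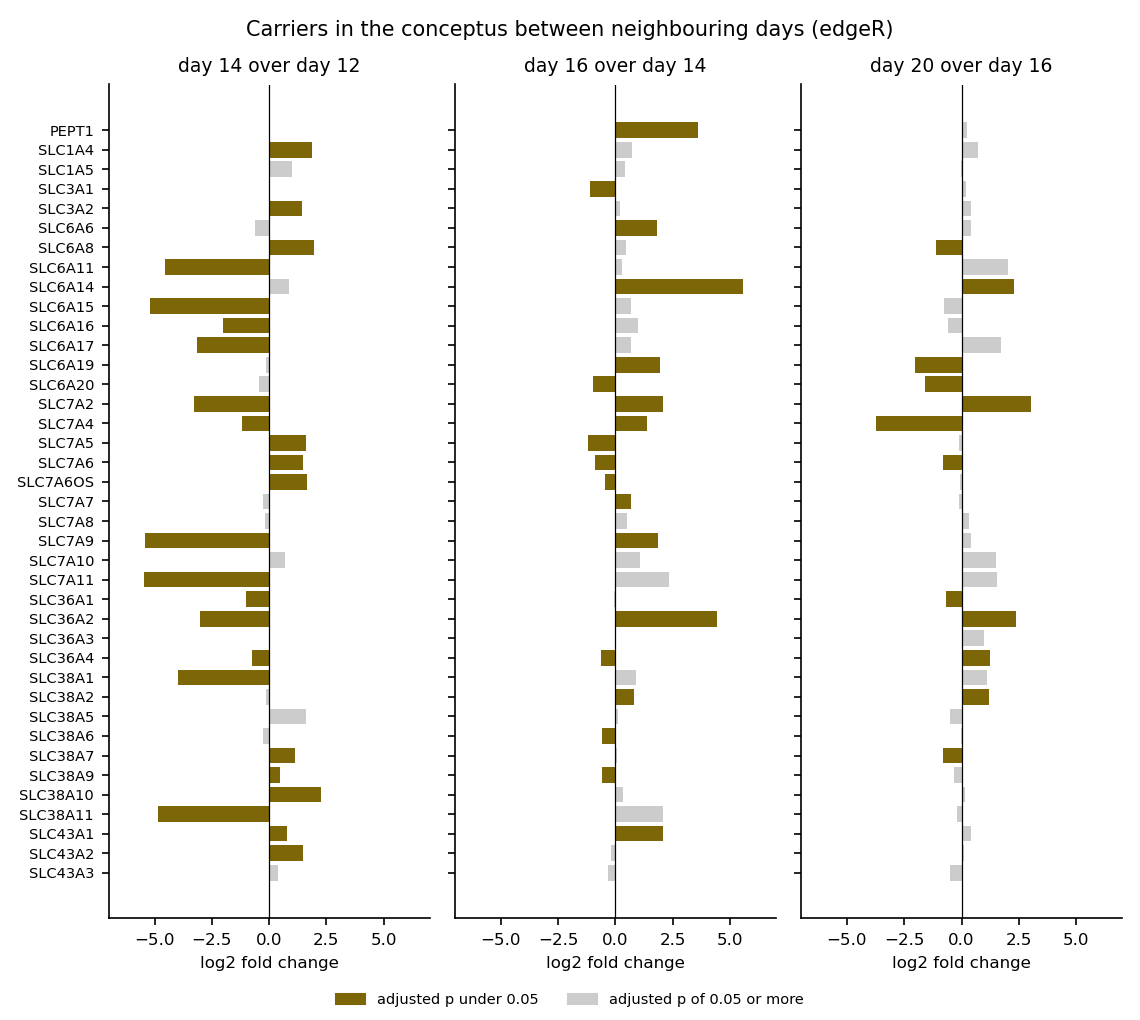
Log2 change of each tested carrier in the conceptus for day 14 over day 12, day 16 over day 14 and day 20 over day 16 from edgeR, as bars, coloured for an adjusted p under 0.05 and grey otherwise, with SLC36A3 drawn for the last step alone because it was at 0 in every day 14 library. At day 16 over day 14, PEPT1 stands at 3.60, SLC36A2 at 4.45 and SLC6A14 at 5.58.

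Genes of 4 related pathways were counted the same way, each list being chosen with earlier results of these data known. Of the peptide-digesting enzymes, 20 of 23 listed genes were in the files and 14 were tested in each of the epithelial comparisons. In LE 5 changed over days, against 23.8% of all genes, led by MME (adjusted p = 0.00768) and DPP4 (adjusted p = 0.00798). In GE 7 changed, against 23.5%, led by MEP1B (adjusted p = 1.84e-06). MEP1B, a meprin protease of brush borders, averaged 38 ± 23.3 RPKM in LE and 12.8 ± 10.6 RPKM in GE on day 10. On day 20 it averaged 12.4 ± 22.5 RPKM in LE and 253 ± 35.8 RPKM in GE (SD, n = 4). LE was lower than GE over all days for 9 of the 14 and higher for 1, against 42.6% and 12.7% of all genes, with a list median of -1.23 beside -0.37 over all genes. The lower ones included LNPEP at -2.81 (adjusted p = 5.69e-16) and MEP1B at -2.92 (adjusted p = 1.72e-09), and DPP4, which releases dipeptides from peptide ends, was the higher one at 1.28 (adjusted p = 0.000825).

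In the conceptus 16 of 19 of these enzymes changed over days 14 to 20, against 71.2% of all genes. For day 16 over day 14, 7 rose and 2 fell, against 25.6% and 24.3%, with a list median of 1.13 beside 0.06 over all genes, and for day 20 over day 16, 9 rose and 3 fell, against 18.1% and 18.9%, with 0.51 beside -0.02. The aminopeptidase ANPEP rose by 2.89 and 2.31 at these steps (adjusted p = 9.86e-05 and 0.000482), ENPEP by 2.43 and 2.36 (adjusted p = 1.91e-05 and 2.31e-05), and DPP4 by 2.71 and 3.95 (adjusted p = 0.00122 and 7.37e-05).

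Of 37 genes of amino acid sensing by mTORC1, 32 were in the files. In LE 2 of 25 tested changed over days (SESN3, adjusted p = 0.00862, and LAMTOR3, adjusted p = 0.0119) and in GE 4 of 28 (RRAGA, RRAGD, RRAGB and LAMTOR1, adjusted p 0.000807 to 0.0231), against 23.8% and 23.5% of all genes. LE was lower than GE for 14 of 29 and higher for 1, against 42.6% and 12.7% of all genes, with a list median of -0.46. In the conceptus 24 of 31 changed, against 71.2%, with 4 higher and 8 lower for day 16 over day 14, against 25.6% and 24.3%. The amino acid starvation response had 23 of 26 genes in the files. In LE 6 of 17 changed, against 23.8% of all genes, and in GE 4 of 17, against 23.5%, with NUPR1, a stress-induced chromatin protein, and PSAT1, an enzyme of serine synthesis, among both. NUPR1 averaged 531 ± 159 RPKM in LE on day 14 and 54.5 ± 15.7 RPKM on day 12, a rise of 3.26 (adjusted p = 0.00264), and fell by 2.56 for day 16 over day 14 (adjusted p = 0.0115). In GE it rose by 2.86 for day 14 over day 12 (adjusted p = 0.0032). In the conceptus 18 of 22 of the list changed, against 71.2%, with 10 higher and 5 lower for day 16 over day 14, against 25.6% and 24.3%, and a median of 0.64.

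Ion pumps and exchangers, which set the gradients that carriers use, had 20 of 21 genes in the files. Over days, 1 of 9 changed in LE (CA2, adjusted p = 0.00229), against 23.8% of all genes, and 3 of 7 in GE, against 23.5%, among them PDZK1 (adjusted p = 0.0133) and CA2 (adjusted p = 0.0399). FXYD4, a modulator of the sodium pump, averaged 513 ± 124 RPKM in LE on day 16 and was at 0 in all 4 GE libraries of that day, and LE exceeded GE over all days by 7.84 (adjusted p = 7.98e-20). LE was lower for 4 of the 9, against 42.6% of all genes, among them PDZK1, a scaffold of brush-border transporters, at -1.18 (adjusted p = 2.52e-05). In the conceptus 11 of 12 changed over days 14 to 20, against 71.2%, with 4 higher and 6 lower for day 16 over day 14, against 25.6% and 24.3%, and the sodium-proton exchanger SLC9A3 fell by 3.95 at that step.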

How the data were processed

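Levels were measured by RNA-seq in 40 laser-captured LE and GE libraries and 17 conceptus libraries. Per the file headers, the authors deposited RPKM for every library and, for conceptuses, counts of gene reads. The submitters' processing notes name the genome build Oar v3.1, whereas neither the aligner or counter nor the handling of shared or antisense reads is given in the sources used here. Of 25197 features per table, 23 without an identifier were left out. 1 further row with a symbol of these families is not reported here.

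LE and GE were analysed with limma 3.58.1 on log2(RPKM + 1), with genes at 1 RPKM or more in at least 4 libraries. Conceptus counts were analysed with the edgeR 4.0.16 quasi-likelihood test after TMM scaling and filterByExpr, and SE values there are implied by the F statistic. R was version 4.3.3. P-values were Benjamini-Hochberg adjusted over all genes tested, at a threshold of 0.05, and all tests were two-sided. Whole exon reads were recovered from RPKM, and 100% of the low values checked in LE and GE, 201 to 1660 per library, came out whole within 0.1 read. These reads served for depth, for an edgeR alternative in LE and GE, and for exon reads on day 12. The day 12 conceptus table counts reads outside exons as well. The scripts were tested on simulated data. Low counts limit the precision of carriers near the filter, and the numbers given for depth cover counting error only.

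Named were PEPT1 and SLC36A2 in every library, carriers that passed a test, and up to 4 genes of each related list per tissue. Members, lists and tests were chosen with earlier results of these data known. Alternatives were the pseudocount 0.1, no filter, TMM and upper quartile scaling, DESeq2 1.42.0 size factors and tests, limma on conceptus RPKM, edgeR on recovered reads, a replicate block, no LE day 20 libraries 21 and 23, and leaving out each library. Leaving out day 14 and using exon reads on day 12 were added after seeing the data.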

Additional observations from a re-analysis of the deposited data

Results flagged for a closer look

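Libraries far from the others of their group were sought in carriers called changed over days in the same tissue, on the log2(value + 1) scale. Of 168 groups with a mean of 1 or more, 7 were flagged (4.2%), where chance flags about 1 in 20 groups. Other carriers were not searched. Among them were SLC3A2 in LE, at 133 RPKM in day 14 library B08, and SLC38A7 in GE, at 31.7 RPKM in day 14 library B07. SLC38A1 stood at 174 RPKM in GE day 10 library 02, above the other 3 at 87.2 to 97.3 RPKM. SLC38A9 stood at 3.05 RPKM in GE day 12 library 14, below the other 3 at 5.25 to 5.73 RPKM. In the day 12 conceptus, library 4 stood apart for SLC3A1 (13.1 CPM) and SLC7A5 (3.65 CPM). In later conceptuses SLC36A2 stood at 176 CPM in day 20 library 5, SLC36A4 at 10.8 CPM in day 14 library 2 and SLC43A3 at 29.2 CPM in day 20 library 1.

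The difference between LE and GE changed with day for 5 carriers by limma's test of the interaction over all genes. The adjusted p was 0.000203 for PEPT1, 0.00265 for SLC6A15, 0.00445 for SLC7A2, 0.00462 for SLC36A2 and 0.0316 for SLC1A5.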

How the results depend on the processing

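Carriers changed over days in LE numbered 5 of 22, and 12 of 30 in edgeR on recovered reads, against 23.8% and 21.4% of all genes. Calls in LE day steps numbered 5 among 22 carriers tested. They numbered 9 among 22 with a pseudocount of 0.1, 8 among 51 with no filter and 10 among 30 in edgeR. In the same order, day 14 over day 12 was called in 13.1%, 19.8%, 4.59% and 13.9% of all genes. Day 16 over day 14 was called in 12.4%, 18.8%, 4.45% and 9.14%. Carriers whose LE to GE difference changed with day numbered 5 of 29, and 9 of 32 in edgeR, against 13% and 12.6% of all genes. The cause was not tested. The other counts stayed within 1.5 times under every alternative that keeps all libraries. The shares of all genes called in fits with 1 library left out are not given here. Leaving out 1 library gave 4 to 9 carriers changed over days in LE, 3 to 11 calls in LE steps, 9 to 10 and 4 to 10 in GE, 5 to 7 higher and 9 to 12 lower in LE than GE, 45 to 52 by day, 4 to 8 differences changed with day, 26 to 32 carriers changed in the conceptus and 48 to 57 calls in its steps. Counts moved by over 1.5 times without LE day 14 library B04 (9, 11 and 8 for LE days, LE steps and the change with day), B06, LE day 16 library 29 or 31 (3 LE steps each), LE day 20 library 19 (8 LE steps) or 17 (8 for the change with day), and GE day 12 library 16 (4 GE steps). In limma on RPKM the conceptus change of day 14 over day 12 reversed to 0.23 for SLC36A1 and 0.49 for SLC36A4.

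With neighbouring LE and GE numbers as a replicate block, 6 of 29 carriers were higher and 11 lower in LE, against 13% and 43.1% of all genes. The difference changed with day for 7, against 12.1%. There were 50 calls by day, where 14%, 12.5%, 36.3%, 22.5% and 10.7% of all genes were called on days 10 to 20. With a replicate block the conceptus gave 27 of 39 carriers changed over days 14 to 20, against 66.2%. Its 54 step calls stood beside 74.8%, 42.6% and 33% of all genes, in order of step. Deviations of neighbouring numbers correlated at -0.07 to 0.19 (median 0.05), and 15 of 20 were best with their own number. Each day had 4 libraries per tissue to match. Other LE and GE libraries of the same day correlated at -0.18 to 0.12 (median -0.01, n = 60). Deviations of like-numbered conceptuses correlated at -0.30 to 0.35 (median 0.01). The labels do not tie libraries to animals, so the main tests took no pairs. Their LE to GE p-values leave aside any animal that gave both an LE and a GE library. Depth limits the carriers of low level, of which 12 passed the filter in no tissue.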
